A study of Macaca mulatta with 20 samples.

Results

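The 34 genes described here code for the B cell antigen receptor, the surface proteins, kinases and adaptors that act with it, and the transcription factors that keep a B cell a B cell. They were chosen by name, and a gene was used when a probe for it stood well above background on at least 5 of the 20 arrays. Of the 34 genes, 32 met that limit, out of 15929 genes that met it on the whole array. The arrays were Agilent Whole Human Genome microarrays hybridized with whole blood RNA of male rhesus macaques (Macaca mulatta, of Chinese origin, juvenile to adult), from which globin transcripts had been depleted. Blood was drawn from 8 animals, and 5 samples per time point were processed, so the arrays need not cover all 8. All animals received X-rays to the whole thorax, with 10 Gy planned at the midplane, under ketamine and dexmedetomidine, and pain relief (ketoprofen, buprenorphine) was given as needed, while steroids and antibiotics were not part of their care. The 4 groups were blood taken before irradiation and at 2, 5 and 30 days after it, with 5 arrays each; no animals without irradiation were among the groups, so time and irradiation cannot be told apart. The RNA of one sample came from a pair of animals pooled together, and the labels do not tell which sample that was.

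A B cell reads antigen through a membrane immunoglobulin held by the signalling chains CD79A (Igα) and CD79B (Igβ). When the receptor is bound, the kinases LYN and BLK phosphorylate these chains, SYK and BTK carry the signal on through the adaptor BLNK, the complement receptor CR2 (CD21) lowers the threshold, and CD22 and CD72 damp the response. PAX5, EBF1, SPIB, POU2F2 and its co-activator POU2AF1 drive the genes of this program. Lymphocytes, B cells above all, are among the most radiosensitive cells of the blood, and blood passing through an irradiated chest is exposed along with the lung.

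The probes were designed on human transcripts, so each value is the binding of macaque RNA to a human sequence of 60 bases, and positions are those listed for the array on human genome build hg19. The first 30 bases of the probes on which the results below turn are printed here, 5′ to 3′, because a gene can only be read as well as its probe binds. The first set covers the receptor chains and the members with the largest changes.
CD79A (chr19:42385356-42385415, plus strand): tgattgtagcagcctcgttagtgtcacccc
CD79B (chr17:62007153-62007212, minus strand): cgctgaaggatggtatcatcatgatccaga
FCRLA (chr1:161683792-161683851, plus strand): gacataccagtctttagctggtgctatggt
TNFRSF13C (chr22:42321172-42321231, minus strand): acagaccacagcattcagcccccatggagt
TCL1A (chr14:96176290-96176337, minus strand): tttcccccctttatagatggtcacgcacct

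The second set shows CD72 and POU2F2, whose probes differed from each other. FCRLA, FCRL5, CD37 and RALGPS2 also had probes that were not well above background on at least 5 arrays. CD72 had 3 probes, of which the first was well above background on 20 of 20 arrays, the second on 1 and the remaining one on 0. Both POU2F2 probes were well above background on 20 arrays, with different changes at day 30.
CD72, first probe (chr9:35616936-35616995, minus strand): caccgcccccctgcggatggtcccaattca
CD72, second probe (chr9:35616330-35616389, minus strand): tttcagcctgtgatgcaaaaagttgcaaga
CD72, remaining probe (chr9:35610685-35610744, minus strand): tgctcaaagctcaaaatgtaacaaggtaca
POU2F2, brighter probe (chr19:42599941-42600000, minus strand): ctgagcttcaagaacatgtgcaaactcaag
POU2F2, dimmer probe (chr19:42596020-42596079, minus strand): gggttgagctccgggctgagtccagccctc

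The last set belongs to the 2 genes that could not be followed. MS4A1, which codes for CD20, was well above background on 2 of 20 arrays, and PAX5, the factor that commits a cell to the B lineage, on 0 of 20. Each had a single probe, and their values have no further part in the counts.
MS4A1 (chr11:60238115-60238174, plus strand): gccaagaagtagaagatatattctctagcc
PAX5 (chr9:36839029-36839088, minus strand): ttaattccttgcatagtctctcttgtcaag

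Thus the defining B cell genes CD79A and CD79B were measured in this blood, and CD20 and PAX5 were not well above background. Of the 32 genes used, 30 had a probe well above background on all 20 arrays, CD24 was so on 19, and TNFRSF13B, which codes for the receptor TACI, on 10 (1, 3, 4 and 2 of the 5 arrays before irradiation and at days 2, 5 and 30). The CD24 probe is placed on chromosome Y by the array annotation, where a near-identical copy of the gene lies, so the CD24 values are uncertain. A level below is the log2 processed signal of a gene's probe after subtracting the 75th percentile of the array, and can be compared only within a gene. A change is the difference of 2 such levels within a replicate number, averaged over 5 pairs. It is given with its standard error from limma, which also draws on the spread of all probes. A gene was called changed in limma when its p was under 0.005 and its p adjusted over 19961 probes (Benjamini-Hochberg) under 0.1.

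The share of spots well above background ran from 50.9% to 67.3% over the arrays. The highest belonged to day 5 replicate 3, and the next was 58.8%. The arrays lay on 5 slides, each with 1 array of every group, always at the same position, so position on the slide and time point cannot be told apart. Over all 19961 probes, 12 were called at day 2 (0.0601%), 0 at day 5 (0.0%), 0 at day 30 (0.0%) and 10 between day 30 and day 2 (0.0501%), and the median log2 changes were -0.04, 0.03, -0.02 and 0.00 in that order.

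Most B cell genes had lower levels after irradiation, by small amounts, and no member was called at any time. At day 2 the changes of 26 of 32 members were below 0, with a median log2 change of -0.40, and 55.1% of all probes were below 0. The unadjusted p of limma was under 0.05 for 14 members that were lower and 1 that was higher, where 6.55% of all probes were lower and 8.47% higher at that limit. Day 5 gave 27 members below 0 with a median of -0.43, against 45.3% of all probes. Of them, 16 were lower at p under 0.05 and 0 higher, where 3.82% of all probes were lower and 7.35% higher. By day 30 there were 24 members below 0, with a median of -0.26, against 52.6% of all probes, and 7 were lower and 0 higher at p under 0.05, where the shares of all probes were 10.1% and 7.43%. Between day 30 and day 2, 21 members were higher (50.2% of all probes) and 11 lower, with a median of 0.09, and 2 were higher and 3 lower at p under 0.05 (5.4% and 7.44% of all probes). A paired test without limma's shared spread also called 0 members in each of the 4 comparisons. Whole blood holds many cell types, and each level is relative to its array. Fewer B cells, less of these RNAs in each B cell and more RNA from other cells cannot be told apart.

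**Figure D1:**
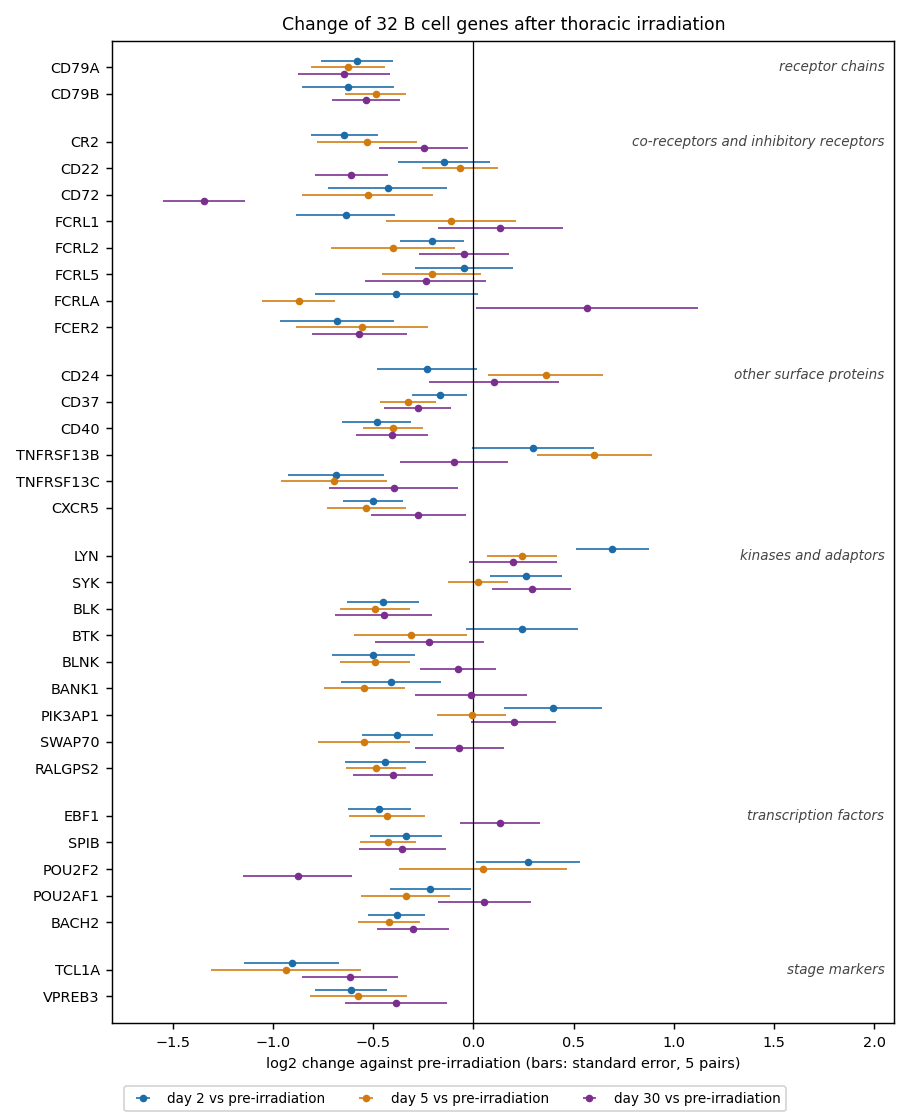
Log2 change of each of 32 B cell genes against pre-irradiation (x axis), grouped by role, with points at the mean of 5 pairs and bars of 1 standard error; colours mark days 2, 5 and 30. Most points lie left of 0, LYN lies right of 0 at day 2, and CD72 at day 30 lies farthest left at -1.34.

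The size of the shift varied between the replicate numbers. The median change over the 32 members was below 0 in 5 of 5 pairs at each day, and its range was -0.71 to -0.01 at day 2, -0.71 to -0.05 at day 5 and -0.78 to -0.04 at day 30. Replicate 3 had the largest drop at day 2, and replicate 1 had it at days 5 and 30. The smallest belonged to replicate 5 at day 2, replicate 3 at day 5 and replicate 4 at day 30. In replicates 4 and 5 at day 30, 16 of 32 members were lower. Pairs taken within slides join other arrays with each other, except for replicate 2 at day 5. Their medians ran from -0.65 to -0.01 at day 2, from -0.65 to -0.22 at day 5 and from -0.61 to 0.06 at day 30. Without replicate 3, whose day 5 array stood apart, the day 5 median was -0.50, with 26 members lower. Without replicate 1 the day 30 median was -0.10, with 20 members lower. From day 2 to day 30 the median ranged from -0.54 in replicate 1 to 0.47 in replicate 3, and it was -0.01 over the other 4 pairs without replicate 3.

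CD79A and CD79B, the signalling chains without which the receptor neither reaches the membrane nor signals, were lower by about the same amount at all 3 days. The level of CD79A in replicates 1 to 5 was 5.65, 5.73, 5.33, 5.89 and 4.86 before irradiation and 4.79, 5.36, 4.46, 5.10 and 4.84 at day 2. It was 4.91, 5.03, 5.09, 4.68 and 4.61 at day 5 and 4.19, 5.23, 4.72, 5.16 and 4.92 at day 30. All pairs were lower at days 2 and 5 and 4 of 5 at day 30, while the groups overlapped, and replicate 5 had the lowest level before irradiation. The log2 change of CD79A was -0.58 ± 0.18 at day 2 (limma, adjusted p = 0.23), -0.62 ± 0.18 at day 5 (adjusted p = 0.34) and -0.65 ± 0.23 at day 30 (adjusted p = 0.21).

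CD79B ran a similar course at its own level. Its values in replicates 1 to 5 were 1.77, 2.92, 2.61, 2.80 and 2.15 before irradiation and 1.54, 2.33, 1.09, 2.02 and 2.13 at day 2. They were 1.47, 2.12, 2.23, 2.09 and 1.90 at day 5 and 1.02, 2.38, 1.95, 2.21 and 2.00 at day 30. Every pair was lower on every day, although the groups overlapped, and replicate 1 was the lowest before irradiation and at days 5 and 30. The log2 change of CD79B was -0.63 ± 0.23 at day 2 (adjusted p = 0.28), -0.49 ± 0.15 at day 5 (adjusted p = 0.34) and -0.54 ± 0.17 at day 30 (adjusted p = 0.19). With normexp background correction both chains were called at day 30, CD79A at -0.77 with an adjusted p of 0.0986 and CD79B at -0.61 with 0.0606. That setting called 899 probes over the whole array at day 30, and none of the others run called either chain.

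Among the 8 co-receptors and inhibitory receptors, all 8 were lower at day 2 and at day 5, with median log2 changes of -0.41 and -0.46, and 6 of 8 at day 30, with a median of -0.24. CD72, a lectin-like receptor that recruits a phosphatase against the receptor signal, had the largest change of all members, read from 1 of its 3 probes. Its level in replicates 1 to 5 was 5.46, 5.72, 6.85, 6.39 and 4.88 before irradiation and 5.23, 6.38, 5.43, 5.33 and 4.79 at day 2. It was 5.64, 5.46, 5.61, 4.67 and 5.29 at day 5 and 4.18, 4.40, 5.20, 4.61 and 4.21 at day 30. Day 30 was the lowest time point in all 5 replicates, and its groups overlapped with pre-irradiation through replicates 3 and 5. The log2 change of CD72 was -0.43 ± 0.30 at day 2 (adjusted p = 0.52), -0.53 ± 0.32 at day 5 (adjusted p = 0.57) and -1.34 ± 0.20 at day 30 (adjusted p = 0.126). It was the 1 member with an unadjusted p under 0.005 at day 30, where 2.0% of all probes were lower at that limit.

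Between day 2 and day 30 CD72 was lower in 5 of 5 pairs, by -0.92 ± 0.25 on the log2 scale (adjusted p = 0.36), where 6.7% of all probes were lower in every pair. The day 30 difference from pre-irradiation was called with normexp (-1.42, adjusted p = 0.00984), with the probes above background on all arrays (-1.34, adjusted p = 0.0562), with the deposited log2 values (-1.30, adjusted p = 0.047) and with all 20 arrays in one fit (-1.34, adjusted p = 0.0911). These settings called 899, 695, 334 and 121 of the probes they tested. With the filter and with the deposited values the adjusted p was taken over fewer probes, at most 5884 for the latter. With the slide as a fixed block its adjusted p was 0.455, and without a block 0.3. These CD72 values rest on the first probe printed above, since the other two were not well above background on 19 and 20 of the arrays. Whether the first probe binds CD72 RNA of the macaque was not tested, so the CD72 values are uncertain.

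FCRLA, an intracellular Fc receptor-like protein of B cells, was the 1 member with an unadjusted p under 0.005 at day 5, where 0.316% of all probes were lower at that limit. Its level in replicates 1 to 5 was 0.69, -1.34, 0.35, -1.73 and -2.28 before irradiation and -0.26, -2.03, -1.17, -2.12 and -0.65 at day 2. It was -0.66, -2.41, -0.07, -2.73 and -2.78 at day 5 and -0.58, -1.63, -0.04, 0.34 and 0.44 at day 30. The replicates started far apart, so that the groups overlapped widely while every pair was lower at day 5. The log2 change of FCRLA was -0.87 ± 0.18 at day 5 (adjusted p = 0.28), and without the pairing its adjusted p was 0.936. At day 30 replicates 4 and 5 were higher than before irradiation and replicates 1, 2 and 3 lower, and the change was 0.57 ± 0.55 (adjusted p = 0.63). From day 2 to day 30 it was 0.95 ± 0.37 (adjusted p = 0.37), higher in 4 of 5 pairs.

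Of the other co-receptors, none was called on any day. CR2 was lower in every pair at day 2, by -0.64 ± 0.17 (adjusted p = 0.2), and its changes at days 5 and 30 were -0.53 and -0.25. FCER2, the low-affinity IgE receptor CD23, showed -0.68, -0.56 and -0.57 at the 3 days. CD22, a sialic acid-binding inhibitor, stood at -0.15 and -0.07 at days 2 and 5 and at -0.61 ± 0.18 at day 30, lower in 5 of 5 pairs (adjusted p = 0.18). For the Fc receptor-like proteins FCRL1, FCRL2 and FCRL5 the changes ranged from -0.64 to 0.13, and only FCRL1 at day 2 had an unadjusted p under 0.05 (adjusted p = 0.3).

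TNFRSF13C codes for the BAFF receptor, through which mature B cells receive their survival signal. In replicates 1 to 5 it stood at -1.0, -1.70, -1.67, -1.32 and -1.32 before irradiation and -2.65, -1.99, -2.67, -1.55 and -1.58 at day 2. It was -2.05, -2.01, -1.31, -2.34 and -2.76 at day 5 and -2.92, -1.50, -1.95, -0.88 and -1.74 at day 30. All 5 pairs were lower at day 2, 4 at day 5 and 3 at day 30. The log2 change was -0.69 ± 0.24 at day 2 (adjusted p = 0.26), -0.69 ± 0.27 at day 5 and -0.40 ± 0.32 at day 30. Without replicate 1 the day 30 change was -0.02. With normexp background correction the changes at days 2 and 30 were 0.02 and 0.03, so the direction of this gene differed under that setting. The reason was not tested.

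Of the 6 other surface proteins measured, 5 were lower at day 2, 4 at day 5 and 5 at day 30. CXCR5, the chemokine receptor that leads B cells into follicles, was lower in every pair at day 2, by -0.50 ± 0.15 (adjusted p = 0.23), and showed -0.53 at day 5 and -0.27 at day 30. CD40, which receives help from T cells, showed -0.48, -0.40 and -0.40. CD37, a tetraspanin, was lower in every pair at all 3 days by only -0.17, -0.32 and -0.28. TNFRSF13B, not well above background on 10 of the 20 arrays, was the one surface protein above 0 at both early days (0.30 ± 0.31 and 0.60 ± 0.28). Its largest rise at day 5, 1.58, was in replicate 3, whose array had the highest share of spots above background.

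**Figure D2:**
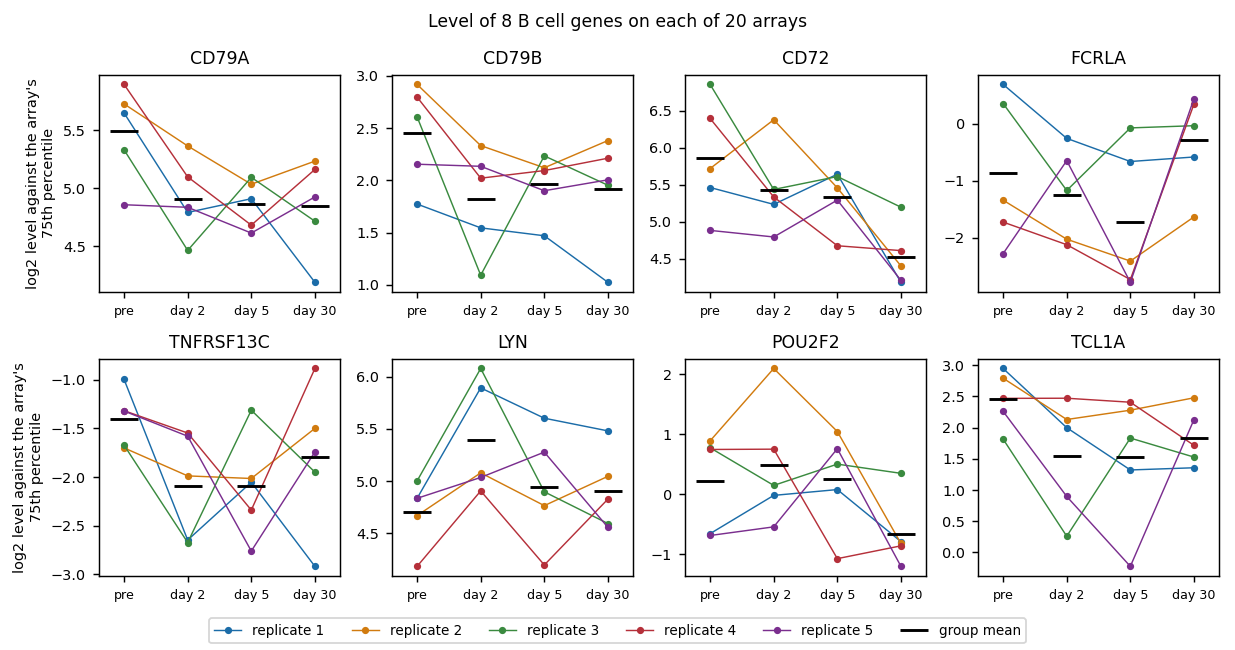
Level of 8 genes (log2 signal less the 75th percentile of the array, y axis) before irradiation and at days 2, 5 and 30 (x axis), with a line for each replicate number and a black bar at the mean of 5 arrays. CD79A and CD79B stay below their pre-irradiation means at all 3 days, LYN is highest at day 2, and CD72 and POU2F2 are lowest at day 30.

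The kinases and adaptors divided by gene. LYN, a Src family kinase that B cells share with monocytes and neutrophils, was the one member with a level higher in every pair at day 2, where 6.17% of all probes were. Its level in replicates 1 to 5 was 4.84, 4.67, 5.00, 4.18 and 4.84 before irradiation and 5.89, 5.08, 6.08, 4.91 and 5.04 at day 2. It was 5.60, 4.77, 4.90, 4.20 and 5.28 at day 5 and 5.48, 5.05, 4.59, 4.83 and 4.56 at day 30. The day 2 arrays overlapped the pre-irradiation arrays only through replicate 4, and at day 30 every pair was below its day 2 level. The log2 change of LYN was 0.69 ± 0.18 at day 2 (adjusted p = 0.2), 0.24 ± 0.17 at day 5 (adjusted p = 0.62) and 0.20 ± 0.22 at day 30 (adjusted p = 0.67). With normexp background correction the day 2 change was 0.15.

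BLK, the Src family kinase of B cells, went the other way. Replicates 1 to 5 read 2.22, 1.99, 1.39, 1.79 and 1.39 before irradiation and 1.32, 1.26, 1.38, 1.24 and 1.13 at day 5. The 2 groups did not overlap, a separation that 0.316% of all probes showed downward, and the change was -0.49 ± 0.17 (adjusted p = 0.38). RALGPS2, an exchange factor for Ral GTPases, was the other member without overlap at day 5, with -0.48 ± 0.15 (adjusted p = 0.34). A second RALGPS2 probe was well above background on 0 arrays. BLNK and BANK1, both adaptors of the receptor, showed -0.50 and -0.41 at day 2, -0.49 and -0.54 at day 5, and -0.08 and -0.01 at day 30. SYK (0.26, 0.02 and 0.29) and PIK3AP1 (0.40, -0.01 and 0.20) had no p under 0.05, nor did BTK against pre-irradiation (0.24, -0.31 and -0.22).

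Of the 5 transcription factors measured, 4 were below 0 at day 2 and at day 5, and POU2F2 was not. EBF1, a factor of early B cell commitment, was lower in every pair at day 2, by -0.47 ± 0.16 (adjusted p = 0.25), was at -0.43 at day 5 and 0.13 at day 30, and was higher in every pair at day 30 than at day 2 (0.60 ± 0.17, adjusted p = 0.36), where 7.03% of all probes were. Of its other probes, one showed 0.42 and the other -0.21 from day 2 to day 30, the latter lower in 4 of 5 pairs. BACH2, which holds back plasma cell differentiation, was lower in every pair at all 3 days (-0.38, -0.42 and -0.30). SPIB showed -0.34, -0.43 and -0.35, and POU2AF1 -0.21, -0.34 and 0.06.

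POU2F2, known as OCT2 and present in B cells and myeloid cells, differed mainly at day 30. Its level in replicates 1 to 5 was -0.65, 0.89, 0.78, 0.75 and -0.68 before irradiation and -0.02, 2.09, 0.15, 0.75 and -0.54 at day 2. It was 0.08, 1.05, 0.50, -1.07 and 0.76 at day 5 and -0.79, -0.82, 0.35, -0.86 and -1.20 at day 30. All 5 pairs were lower at day 30, and replicate 3 stood above the rest of that group. The log2 change was -0.88 ± 0.27 (adjusted p = 0.18). The dimmer POU2F2 probe printed above showed -0.08 ± 0.17 in the same comparison, so the difference belonged to one of its 2 probes.

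TCL1A and VPREB3 mark the younger, naive end of the B cell pool and had the lowest median of the role groups at day 2 (-0.76) and day 5 (-0.75). The level of TCL1A in replicates 1 to 5 was 2.95, 2.79, 1.81, 2.47 and 2.26 before irradiation and 2.00, 2.13, 0.26, 2.47 and 0.90 at day 2. It was 1.32, 2.28, 1.83, 2.41 and -0.22 at day 5 and 1.36, 2.48, 1.53, 1.72 and 2.13 at day 30. Replicates 3 and 5 held the lowest day 2 values, replicate 4 was at 2.47 on both occasions, and only replicate 5 was below 0 at day 5. The log2 change of TCL1A was -0.90 ± 0.24 at day 2 (adjusted p = 0.2), -0.93 ± 0.37 at day 5 (adjusted p = 0.42) and -0.61 ± 0.24 at day 30 (adjusted p = 0.24), when all 5 pairs were lower.

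VPREB3 was the one member whose groups did not overlap at day 2, which 1.09% of all probes showed downward. Its 5 replicates stood at 2.34, 2.71, 2.22, 2.31 and 2.02 before irradiation and 1.28, 1.95, 1.48, 1.94 and 1.91 at day 2, so that the lowest pre-irradiation value lay above the highest at day 2. The change was -0.61 ± 0.18 (adjusted p = 0.22), and a second probe of VPREB3 showed -0.64 ± 0.18.

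Counted over the members, 11 of 32 were lower in every pair at day 2, where 8.19% of all probes were, 10 at day 5 (5.86% of all probes) and 7 at day 30 (10.5%). No member had groups without overlap at day 30, when 1.19% of all probes did so downward. CD79B, CD37 and BACH2 were in all 3 sets. Of the 32 members, 21 were below 0 at all 3 days, and LYN and SYK at none. The lowest change fell on day 2 for 9 members, on day 5 for 16 and on day 30 for 7. The 3 comparisons share the same pre-irradiation arrays, so the values of the 3 days are not independent of each other.

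For 11 members, 2 or more probes passed the limit on background. All passing probes of a gene had the same sign for 10 of the 11 genes at day 2, 11 at day 5 and 9 at day 30, and for 8 between day 30 and day 2. The exceptions against pre-irradiation were FCRL5 at day 2, and FCRL1 and EBF1 at day 30, and between day 30 and day 2 they were FCRL1, CD40 and EBF1. The 2 dimmer EBF1 probes showed -0.09 and -0.67 at day 30, against 0.13 for the brightest. BACH2 was lower on all 3 of its probes at each day, with -0.38, -0.78 and -0.69 at day 2.

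**Figure D3:**
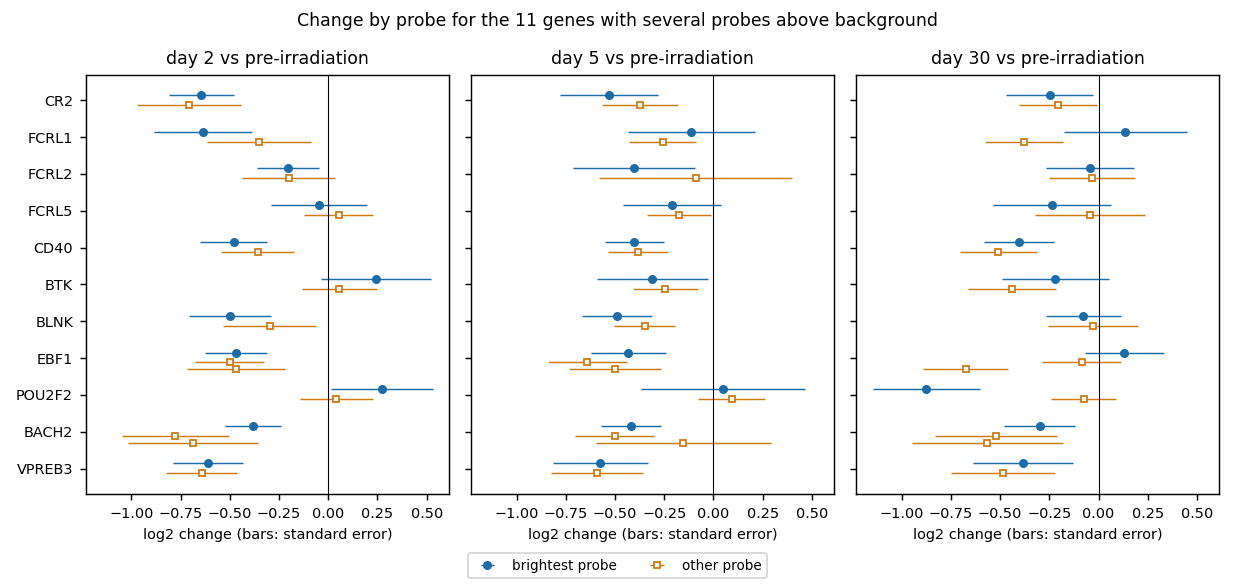
Log2 change against pre-irradiation (x axis, bars of 1 standard error from limma) for the 11 genes with several probes above background, at day 2, day 5 and day 30. Filled circles are the brightest probe, whose values stand in the text, and open squares the others; the probes of POU2F2 stand apart at day 30, at -0.88 and -0.08.

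The members were also divided into 9 that myeloid cells are known to express (LYN, SYK, BTK, PIK3AP1, POU2F2, CD37, SWAP70, CD24 and CD40) and the other 25, of which 23 were measured. The lists were chosen with earlier results of these data known, and myeloid expression of the other 25 was not examined. Expression of the members in T cells was not examined either, so their lower levels need not be particular to B cells. The 23 were lower in 22, 22 and 19 cases at days 2, 5 and 30, with medians of -0.45, -0.49 and -0.30. The 9 shared genes were lower in 4, 5 and 5 cases, with medians of 0.24, -0.01 and -0.07. No test of the difference between these lists was made. Their median within a pair ran from -0.87 to -0.02 for the 23 genes at day 2 and from -0.31 to 0.39 for the 9.

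Markers of other blood cells moved over the same days. T cell markers were lower in 14 of 14 genes at day 2, 13 at day 5 and 14 at day 30 (medians -0.48, -0.29 and -0.34), with CD3D at -0.57 and CD3E at -0.20 at day 2. NK cell markers were lower in 8, 8 and 5 of 10 genes (medians -1.33, -0.70 and 0.03), with KLRF1 at -1.41, GNLY at -1.34, NCAM1 at 0.19 and NCR3 at 0.18 at day 2. Of the 10, KLRB1 was called lower at day 2 (-1.67, adjusted p = 0.0965), where 0.0601% of all probes were called. Monocyte markers were higher in 10, 9 and 10 of 10 genes (medians 0.61, 0.39 and 0.63), with CD14 at 0.58 and CSF1R at 0.63 at day 2. Neutrophil markers were higher in 9 of 9 genes at all 3 days (medians 1.0, 0.82 and 1.11), with CSF3R at 1.0 and CXCR2 at 1.06 at day 2. Platelet markers were higher in 9, 9 and 3 of 9 genes (medians 1.48, 0.44 and -0.13), with PF4 at 1.47 and PPBP at 1.55 at day 2.

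Erythroid markers were lower in 5, 3 and 8 of 8 genes, with medians of -0.15, 0.11 and -0.77. At day 2 they ran from -0.73 for EPB42 to 0.28 for CA1, with ALAS2 at -0.26. Of the plasmacytoid dendritic cell markers, 4 of 6 were measured, with medians of 0.33, -0.08 and 0.34. At day 2, LILRA4 and IRF7 were at 1.27 and 0.93, and TCF4 and GZMB, the latter also on the NK cell list, at -0.26 and -1.27, while CLEC4C and IL3RA were above background on 2 and 0 arrays. The log2 of the summed signal of the 9 neutrophil markers ranged from 7.21 to 9.10 before irradiation, from 8.46 to 10.25 at day 2, from 8.19 to 9.78 at day 5 and from 8.68 to 10.67 at day 30. For the 10 monocyte markers these ranges were 6.53 to 8.08, 7.56 to 8.42, 6.61 to 8.25 and 7.54 to 8.50. The part of these markers in the differences of the B cell genes was not tested.

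**Figure D4:**
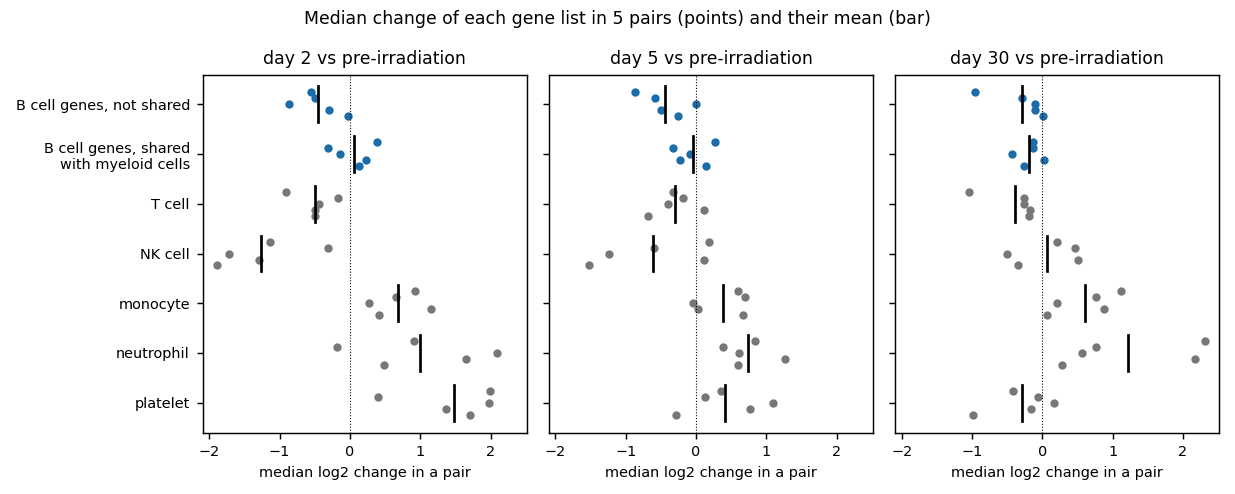
Median log2 change of each gene list within a pair (x axis, with points for 5 pairs and a black bar for their mean) at days 2, 5 and 30. Shown are the 23 B cell genes not listed as shared with myeloid cells, the 9 listed as shared, and the marker lists of 5 other cell types. The points of the 23 genes lie at or below 0 apart from 1 pair at day 30, while those of the 9 shared genes lie on both sides of 0 on each day.

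The receptor pathway beyond these members and the plasma cell program were looked at by the same measure. Of 30 further pathway genes, 28 were measured, and 13, 20 and 15 were lower at days 2, 5 and 30 (55.1%, 45.3% and 52.6% of all probes), with medians of 0.06, -0.17 and -0.03. None was called, and none had a p under 0.005. At p under 0.05 in limma there were 2 higher and 3 lower at day 2, 1 and 4 at day 5, and 1 and 2 at day 30. The shares of all probes at that limit were 8.47% higher and 6.55% lower, 7.35% and 3.82%, and 7.43% and 10.1%.

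Of 18 plasma cell and immunoglobulin symbols, 11 were measured, and 8, 7 and 6 of them were higher, with medians of 0.21, 0.18 and 0.01. The heavy chain genes, IGHM among them, were not found on the array under these symbols. IGJ, the joining chain of secreted antibody, showed 0.36 ± 0.22, 0.61 ± 0.39 and 0.32 ± 0.21 at the 3 days, higher in 4 of 5 pairs each time (adjusted p = 0.47, adjusted p = 0.58 and adjusted p = 0.46). DERL3, a protein of the endoplasmic reticulum that secretory cells use, was the 1 gene of this list with an unadjusted p under 0.005, and was lower in every pair at day 30, by -1.02 ± 0.22 (adjusted p = 0.129), where 2.0% of all probes were lower at that limit and 10.5% lower in every pair, after -0.08 and -0.17 at days 2 and 5.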

How the data were processed

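The authors deposited Agilent Feature Extraction output (version 12.0.2.2 per the file headers, 10.7 per the labels) for each array. Its processed signal is an intensity, deposited after the scanner software had subtracted background, without normalization across arrays. A deposited table of log2 values covers 5884 probes; at least 96.9% of an array's values equalled log2 signal plus a constant within 0.001. Control and outlier spots were left out, log2 signals of a probe's spots averaged, and the 75th percentile of the array subtracted. Of 34127 probes, 19961 passed the background limit on 5 or more arrays and entered the comparison with limma 3.58.1 (R 4.3.3) with the replicate number as a block, where at least 4 pairs had a value. A gene was read from its brightest passing probe. The members and lists were chosen with earlier results of these data known. Values in every array were given for members with p under 0.005, the receptor chains and the largest change in each role group; the arrays of VPREB3 and BLK were added after their values were seen. One gene of the pathway list is not reported here by name.

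The study's methods pair the samples by animal, while the labels give only replicate numbers. Deviations of same-numbered arrays correlated at 0.173 to 0.482 at day 2, 0.124 to 0.654 at day 5 and 0.0417 to 0.434 at day 30, and at -0.162 to 0.485 between days 30 and 2. Arrays sharing neither number nor slide gave medians of -0.114, -0.116, -0.0379 and -0.0892 in that order. The 0.654 belonged to replicate 2 at day 5, a pair that also shared a slide, and the highest of the other day 5 pairs was 0.455. The -0.162 belonged to replicate 3 between days 30 and 2, which shared a slide as well. At day 30, replicates 4 and 5 stood at 0.0653 and 0.0417. Whether a number marks the same animal throughout is not certain. Precision is set by 5 arrays a group. In simulated data for day 2, with 19954 probes, 0, 20, 44 and 48 of 50 probes were called at log2 changes of 0.5, 1, 2 and 3, and 11 of 19754 unchanged ones. Alternatives were quantile normalization, median scaling, normexp (offset 50), no filter, a filter requiring all 20 arrays, the deposited log2 table, no block, one fit of all arrays, the slide as a random block, a paired test of each probe, the mean over a gene's probes and each replicate left out; the slide as a fixed block was added after seeing the data. Macaque sequence differences and exon positions were not used here. Tables were read with Python 3.11.15, pandas 2.3.3 and numpy 2.4.6, and figures drawn with matplotlib 3.10.9.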

Additional observations from a re-analysis of the deposited data

Results flagged for a closer look

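In 6 of the 128 combinations of a member and a group, 1 array lay far from the other 4, by Dixon's criterion at a rate of 1 in 20, which chance alone would give in 6.4. The level of CD22 in pre-irradiation replicate 1 was -2.44, with the others between -1.30 and -1.11. FCRL2 in pre-irradiation replicate 3 was at 0.70, with the others between 2.09 and 2.61. CD37 at day 5 was 5.48 in replicate 1, against 5.08 to 5.19. BTK at day 30 was 2.00 in replicate 5, against 1.33 to 1.46. RALGPS2 at day 5 was -1.34 in replicate 5, against -1.12 to -1.06. POU2F2 at day 30 was 0.35 in replicate 3, against -1.20 to -0.79.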

How the results depend on the processing

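The median change of the members kept its sign in all 11 other planned settings and the added one, between -0.42 and -0.33 at day 2, -0.57 and -0.35 at day 5, -0.28 and -0.14 at day 30, and 0.09 and 0.23 from day 2 to day 30. With 1 replicate left out it ranged from -0.53 to -0.30, -0.50 to -0.37, -0.34 to -0.10 and -0.01 to 0.23. Members called were 0 in all these settings in the comparisons other than day 30 against pre-irradiation. At day 30 they were 0 with each replicate left out, 3 with normexp (CD79A, CD79B and CD72) and 1 (CD72) with the filter on all 20 arrays, the deposited values and all arrays in one fit.

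The number of probes called among those tested depended on the setting, and the settings did not all test the same probes. At day 2 it was 0 with normexp, quantile normalization, no filter and the paired test, 190 with the filter on all 20 arrays, 327 with the deposited values, 343 in one fit, 3 with the slide as a random block and 1 with it as a fixed block. At day 5 it was 9 with median scaling and 1 with the paired test. At day 30 it was 899 with normexp, 695 with the filter on all arrays, 334 with the deposited values, 121 in one fit and 1 with the paired test. Between days 30 and 2 it was 5, 26, 57, 164 and 0 in the same settings, 0 with no filter or the slide as a fixed block and 3 with it as a random block. With a replicate left out it ranged from 0 to 588 at day 2, the highest without replicate 2, stayed at 0 at days 5 and 30, and ranged from 0 to 66 between days 30 and 2. Without the replicate block it was 0 at day 2 and 4 between days 30 and 2, and 0 at days 5 and 30; the block changed no call among the members. The causes were not tested.

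Only CD79A, CD79B, CD72, FCRLA, TNFRSF13C, LYN, POU2F2 and TCL1A were followed gene by gene over these settings. Among them, directions turned as follows, and turns of the other members were not examined. POU2F2 at day 5 was -0.09 with median scaling, -0.12 without replicate 1 and -0.30 without replicate 5, and its range with 1 replicate left out was -0.30 to 0.52. TNFRSF13C was 0.02 at day 2 and 0.03 at day 30 with normexp. Between days 30 and 2, CD79A was 0.33 with normexp and 0.07 without replicate 1, with a range of -0.14 to 0.07 over the replicates left out, and CD79B ranged from -0.10 without replicate 3 to 0.24. Dim probes limit TNFRSF13B, MS4A1 and PAX5 most.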
